A study of Homo sapiens with 12 samples.

Results

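The 9 genes described here are 3 forkhead transcription factors, FOXO1, FOXO3 and FOXO4, and 6 genes known as FOXO outputs or as neighbours of the insulin pathway that controls FOXO proteins: FBXO32, KLHL24, DEPP1, TXNIP, ARRDC4 and IRS2. They were taken by symbol from a table of 58302 genes, and were chosen on earlier results for the same libraries, among them the artesunate changes of these genes in each cell line, so their own changes are given as a description. All 9 had enough reads to enter the fit, among 17150 genes tested. FOXO proteins bind a forkhead motif and switch on genes of protein breakdown, autophagy, cell-cycle arrest and antioxidant defence. Insulin and growth factor signals act through PI3-kinase and the kinase AKT, which phosphorylates FOXO proteins and keeps them out of the nucleus, so the amount of FOXO transcript does not measure FOXO activity. In glioma this pathway is often overactive.

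Polyadenylated RNA was sequenced from the human glioma lines U251 and U87 in 4 groups of 3 libraries: U251 with 180 µM artesunate, U251 control, U87 with 24.08 µM artesunate, and U87 control. Artesunate is a semisynthetic derivative of the antimalarial artemisinin, which is the name that the extraction text uses. The treated samples had 24 h of the drug, the labels give day 9 for every sample, and the control label names culture medium only, with no solvent control stated. Because each line had its own dose, line and dose cannot be told apart. The labels do not say whether replicates were separate cultures, so p-values measure a spread between samples that may be technical.

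Library totals ran from 13631985 to 17314284 counts, at which 3 counts, taken as the floor of detection, equal 0.168 to 0.219 CPM (counts scaled to a common library size, here the TMM-adjusted total). The summed glioma and astroglia markers lay between 5304 and 7272 CPM in all 12 libraries, mostly VIM. SOX2, at 246 CPM in U251 artesunate and 249 CPM in U251 control, had 0 counts in all 6 U87 libraries, and GFAP was at 1.67 CPM in U87 artesunate and 1.01 CPM in U87 control. NES was at 11.9 CPM in U87 artesunate against 70.9 CPM in U87 control, and SOX9 at 193 CPM in U251 artesunate against 78.2 CPM in U251 control. In U87, SOX9 was at 3.52 CPM with artesunate against 6.60 CPM in control. OLIG2 went the other way there, at 7.39 CPM with artesunate against 3.16 CPM in control. Its means in U251 were 0 CPM with artesunate and 0.146 CPM in control. CD44 was at 551 CPM in U87 artesunate against 519 CPM in U87 control. Of 4 microglia and leukocyte markers AIF1 had 0 counts in every library, and PTPRC had group means of 0.0626 to 0.173 CPM, near or under the floor. The sum of these 4 was 31.0 to 60.5 CPM in U87 artesunate against 73.2 to 115 CPM in U87 control. In U251 it was 3.77 to 6.60 CPM with artesunate against 1.07 to 3.17 CPM in control. That sum was almost all CD68 and CSF1R. In U87 both were lower with artesunate, CD68 at 33.4 against 74.4 CPM and CSF1R at 7.32 against 20.5 CPM. In U251 they went opposite ways, CD68 at 4.43 CPM with artesunate against 1.53 CPM in control and CSF1R at 0.386 against 0.678 CPM. The sum of 4 neuron markers was 39.2 to 54.4 CPM in U87 artesunate against 68.6 to 80.7 CPM in U87 control. Its members did not move together. TUBB3 was at 22.9 CPM in U87 artesunate against 51.1 CPM in U87 control, SNAP25 at 12.6 against 22.5 CPM, and SYT1 at 10.7 against 2.89 CPM. RBFOX3 was under the floor in U87, at 0.0973 and 0.137 CPM. In U251 the neuron sums overlapped, at 198 to 221.5 CPM with artesunate against 117 to 288 CPM in control. The part of these shifts in the results was not tested. In bulk RNA, fewer expressing cells and less RNA per cell cannot be told apart.

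Promoter windows from RefSeq (GRCh38.p14, 250 bases before to 50 bases from the annotated transcript start) were matched for 8 of the 9 genes, in 12 windows in all. The 3 windows below were picked by gene. They hold matches to motifs searched for the 2 transcription factor families that bear on these genes. The FOXO4 window, which also held a forkhead match, and the other TXNIP window, which held no match, are not printed. Capitals mark the forkhead motif bound by FOXO proteins (GTAAACA), the E-box (CACGTG), or the carbohydrate response element bound by MondoA and its partner MLX, searched as CACGNG and CNCGNG with any 5 bases between them. Each motif was searched on both strands.
TXNIP, chr1:145996530-145996829, minus strand: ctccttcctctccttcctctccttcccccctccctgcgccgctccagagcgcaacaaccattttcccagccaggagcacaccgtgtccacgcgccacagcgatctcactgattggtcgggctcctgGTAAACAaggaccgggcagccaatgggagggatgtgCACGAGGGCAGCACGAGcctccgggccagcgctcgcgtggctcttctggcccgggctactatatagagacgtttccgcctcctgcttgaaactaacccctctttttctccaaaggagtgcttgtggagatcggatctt
DEPP1, chr10:44978760-44979059, minus strand: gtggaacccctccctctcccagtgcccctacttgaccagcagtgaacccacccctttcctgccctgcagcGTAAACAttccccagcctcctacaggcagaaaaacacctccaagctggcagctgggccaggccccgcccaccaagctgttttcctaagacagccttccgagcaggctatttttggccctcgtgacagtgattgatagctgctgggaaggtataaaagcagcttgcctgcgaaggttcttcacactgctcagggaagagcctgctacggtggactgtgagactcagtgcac
ARRDC4, chr15:97960453-97960752, plus strand: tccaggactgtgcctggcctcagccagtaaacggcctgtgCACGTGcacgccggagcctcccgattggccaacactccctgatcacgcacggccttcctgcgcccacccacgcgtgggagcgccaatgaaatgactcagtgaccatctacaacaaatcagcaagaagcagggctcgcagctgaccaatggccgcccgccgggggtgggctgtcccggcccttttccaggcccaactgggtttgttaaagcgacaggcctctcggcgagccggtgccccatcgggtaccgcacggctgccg
With the start base counted as 1 and the base before it as -1, the forkhead motif began at base -124 in TXNIP, at base -180 in DEPP1 and at base 24 in FOXO4. It was in 3.42% of the 35116 promoter windows of the RefSeq table. The carbohydrate response element began at base -88 in TXNIP and was in 0.501% of all windows, and the E-box at base -210 in ARRDC4 was in 7.26%. The ARRDC4 window held no match to the carbohydrate response element. The motifs did not overlap one another. These are matches of letters, and the windows of FOXO1, FOXO3, KLHL24 and IRS2 held no match.

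**Figure D1:**
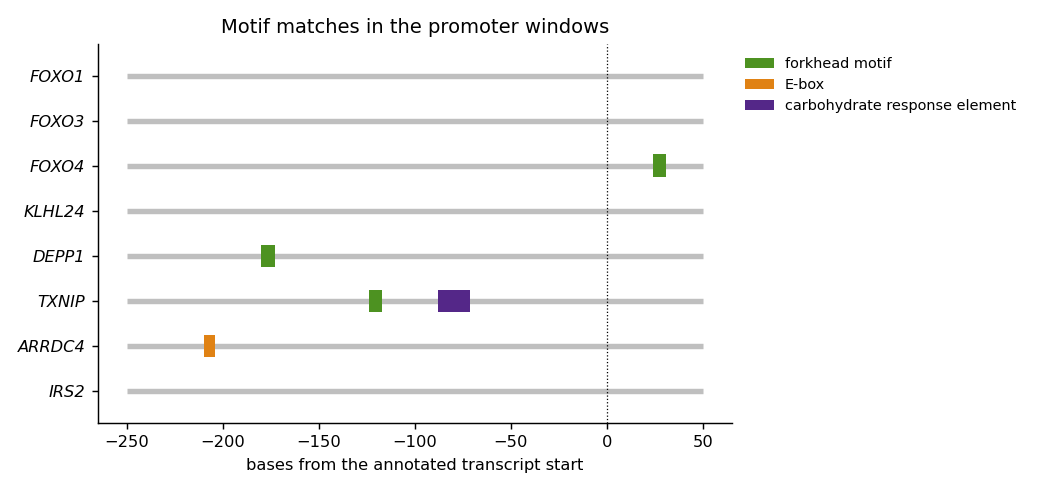
Position of the motif matches (coloured blocks) in the promoter windows of 8 genes (grey lines), in bases from the annotated transcript start (dotted line). DEPP1 and FOXO4 hold 1 forkhead match each, TXNIP holds a forkhead match and a carbohydrate response element, and ARRDC4 holds an E-box. For genes with several windows all windows are shown on 1 line.

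The first question was how the 9 transcripts stood in each line with artesunate. The lines differed most in which output gene moved: DEPP1 was 8.09-fold higher with artesunate in U251 and lower in U87, whereas KLHL24 and FBXO32 were 15.0-fold and 4.74-fold higher in U87 and stood at 1.10 and 0.881 times control in U251. TXNIP was 2.29-fold higher in U251 and 2.19-fold higher in U87, FOXO1 moved in opposite directions, and FOXO3 was the most abundant FOXO transcript in both treated groups. A gene is called where the Benjamini-Hochberg adjusted p of edgeR's quasi-likelihood test over all 17150 genes was under 0.05. In an alternative fit with offsets for GC content and transcript length, the U87 log2 fold change of DEPP1 was -0.11 and not called, against -0.79 without them. That of KLHL24 in U87 was then 3.19, against 3.91. In U251, 4 of the 9 genes were called higher and 1 lower, where 4.09% of all tested genes were called higher and 4.26% lower. In U87, 7 were called higher and 1 lower, against 29.2% of all genes higher and 29.2% lower. The median log2 fold change of the 9 was 0.70 in U251 and 0.76 in U87, where that of all tested genes was 0 in both. Since these contrasts are among the results that the 9 were chosen on, the counts describe them and support nothing.

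**Figure D2:**
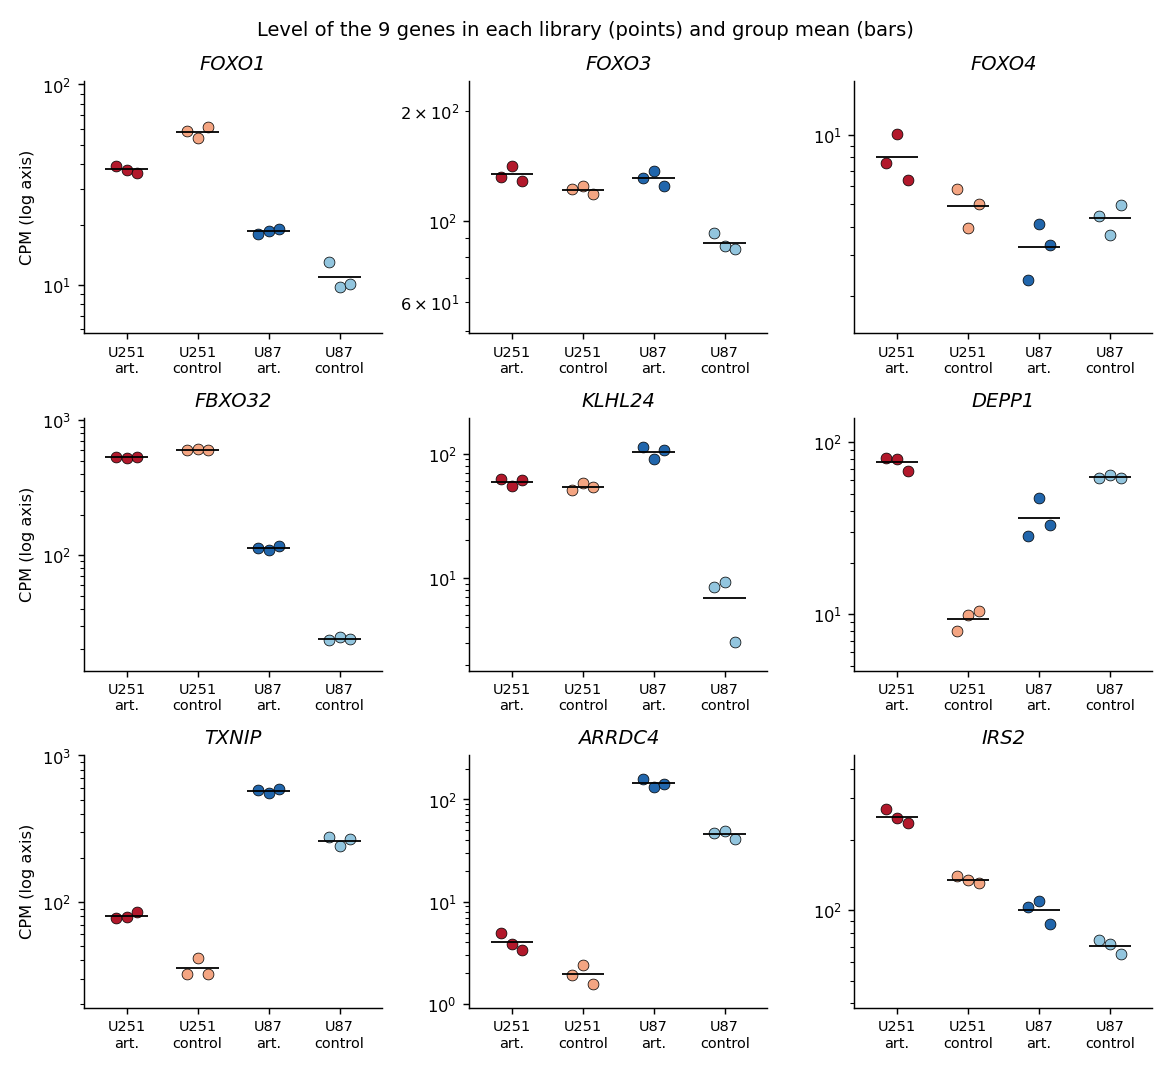
CPM of the 9 genes on log axes, with 1 point per library and a bar at each group mean (n = 3 libraries per group). The 3 DEPP1 points of U251 artesunate lie above those of U251 control, and the KLHL24 points of U87 artesunate lie above those of U87 control, of which 1 is lower than the other 2.

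FOXO1 (chromosome 13, positions 40469953 to 40666597 on GRCh38, minus strand), a factor known for its part in insulin-regulated metabolism, had 39.1, 37.6 and 36.3 CPM in U251 artesunate, against 58.3, 54.3 and 61.2 CPM in U251 control. All treated U251 libraries were below all controls, a log2 fold change of -0.62 ± 0.11 (SE, called). In U87 the order was turned round, at 17.9, 18.6 and 19.1 CPM with artesunate against 13.0, 9.73 and 10.1 CPM in control, with no overlap and a log2 fold change of 0.76 ± 0.12 (called), which was 0.48 on the log2 scale of FPKM with a pseudocount of 1. The effect in U251 minus that in U87 was -1.38 ± 0.16 on the log2 scale. The span of FOXO1 overlaps that of LINC00598 on the same strand by 65855 bases, introns included. LINC00598 had 7 to 46 counts a library, against 161 to 977 for FOXO1.

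FOXO3 (chromosome 6, positions 108559835 to 108684774, plus strand), the family member best known for stress resistance, had 132, 142 and 128 CPM in U251 artesunate, against 122, 125 and 119 CPM in U251 control. Though no treated library fell within the control range, the log2 fold change of 0.14 ± 0.07 was not called. In U87 it had 131, 137 and 124 CPM with artesunate against 92.5, 85.3 and 83.9 CPM in control, a log2 fold change of 0.58 ± 0.07 (called), with all treated libraries above the controls.

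FOXO4 (chromosome X, positions 71096197 to 71103535, plus strand) was the least abundant of the 3 factors. Its levels were 7.53, 10.1 and 6.36 CPM in U251 artesunate, against 5.82, 3.96 and 5.01 CPM in U251 control, from 65 to 160 counts a library. The treated libraries were all above the controls, but the log2 fold change of 0.70 ± 0.24 was not called. In U87 artesunate it had 2.33, 4.09 and 3.33 CPM, from 32, 56 and 52 counts. In U87 control it had 4.43, 3.69 and 4.97 CPM, from 79, 61 and 80 counts. The ranges overlapped, and the log2 fold change of -0.42 ± 0.25 was not called. It was 0.17 with offsets for GC content and transcript length, an alternative fit that takes out each library's trend with these properties.

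To compare the factors with one another, levels per transcript length are needed, here the deposited FPKM values (fragments per unit of transcript length and of library size). In U251, FOXO1 made 32.9% to 36.2% of the summed FPKM of the 3 factors with artesunate, against 47.3% to 50.7% in control. FOXO3 made 54.1% to 55.7% of that sum with artesunate, against 43.5% to 47.9% in control, so its share exceeded that of FOXO1 in each treated U251 library, where in control the larger share was that of FOXO1 in libraries 1 and 3 and that of FOXO3 in library 2. In U87, FOXO3 made 69.8% to 73.2% with artesunate against 68.1% to 71.7% in control, and FOXO1 21.9% to 24.3% against 18.5% to 21.6%. The sum itself was 16.1 to 17.6 FPKM in U251 artesunate and 18.3 to 19.3 FPKM in U251 control. It was 11.9 to 13.4 FPKM in U87 artesunate and 8.42 to 9.75 FPKM in U87 control, so that each line's groups lay apart, in opposite directions.

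**Figure D3:**
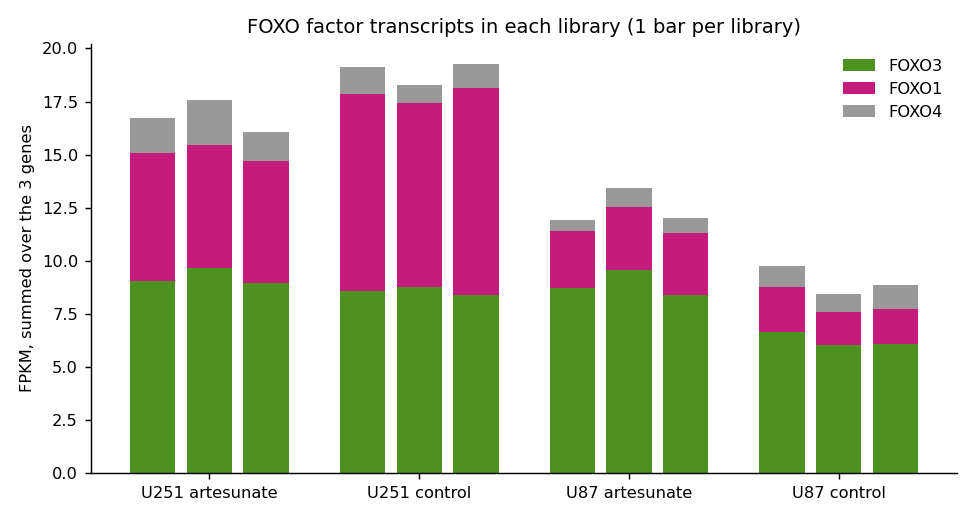
FPKM of FOXO3, FOXO1 and FOXO4 stacked in each library (1 bar per library, 3 libraries per group). The FOXO1 part of the bars is smaller in U251 artesunate than in U251 control, and FOXO3 is the largest part in all U87 libraries.

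The remaining family member and the gene copies were near or at the floor, or uncertain. FOXO6 had 7 counts over the 3 U251 artesunate libraries, 4 over the U251 controls and 0 in U87, and FOXO1B, a processed pseudogene, had 0 counts in all libraries. FOXO3B, a processed copy of FOXO3, had 16 to 174 counts a library, or 0.868% to 9.52% of the FOXO3 count. Its groups overlapped widely in U251 and narrowly in U87, at 8.68 to 12.6 CPM with artesunate against 0.967 to 8.81 CPM in control. Reads of the near-identical pair could be split between them by the authors' counting, so both counts are uncertain to that extent. FOXO3B was not called in either line.

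FBXO32 (chromosome 8, positions 123497889 to 123541206 on GRCh38, minus strand) encodes atrogin-1, an F-box protein that picks substrates for an SCF ubiquitin ligase and is a classic FOXO output in wasting muscle. In U251 it had 539, 522 and 538 CPM with artesunate, against 600, 611 and 604 CPM in control. The treated libraries were all lower, by -0.18 ± 0.06 on the log2 scale, which was not called; it was called with 6 of the alternatives, among them total-count scaling and DESeq2, at values down to -0.22, and without replicate 2 of U87 artesunate. In U87 it had 114, 110 and 118 CPM with artesunate, against 23.6, 24.6 and 23.7 CPM in control. That is a log2 fold change of 2.24 ± 0.06 (called), with replicates within each U87 group close together.

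KLHL24 (chromosome 3, positions 183635568 to 183684477, plus strand) encodes a kelch-repeat adaptor of a CUL3 ubiquitin ligase, known from skin, where it acts on a keratin. It had 62.2, 54.5 and 61.7 CPM in U251 artesunate, against 50.9, 58.0 and 53.5 CPM in U251 control, so the ranges overlapped, and the log2 fold change of 0.14 ± 0.26 was not called. In U87 artesunate it had 114, 91.4 and 107 CPM, from 1251 to 1670 counts a library. In U87 control it had 8.47, 9.19 and 3.04 CPM, from 151, 152 and 49 counts. The log2 fold change in U87 was 3.91 ± 0.30 (called), and it was 3.19 with the GC and length offsets. On the log2(FPKM + 1) scale, which understates the change of low genes, it was 2.43, below the 2.59 of DEPP1 in U251 on that scale. KLHL24 has the lowest GC content of the 9, 36.7%, lower than all but 4.59% of tested genes. Replicate 3 of U87 control was lower than the other two, and without it the U87 value was 3.53.

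DEPP1 (chromosome 10, positions 44970981 to 44978810, minus strand) encodes a small regulator of autophagy known as a direct FOXO3 target. It had 81.2, 80.1 and 68.1 CPM in U251 artesunate, against 8.01, 9.92 and 10.4 CPM in U251 control, a log2 fold change of 3.02 ± 0.18 (called). The lowest treated U251 library stood far above the highest control. In U87 it had 28.5, 47.6 and 32.9 CPM with artesunate against 61.6, 64.9 and 62.2 CPM in control, with all treated libraries lower and a log2 fold change of -0.79 ± 0.17 (called). The U87 value shrank to -0.11 and was not called with the GC and length offsets, where the U251 value stayed at 2.87. DEPP1 lies wholly within the span of RASSF4 on the other strand (7830 bases, 82 to 381 RASSF4 counts against 121 to 1268 DEPP1 counts a library). Whether counting used strand is not given in the sources used here. The overlap is one of whole gene spans, introns included, so how many reads of the pair could be confused is not known.

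TXNIP (chromosome 1, positions 145992435 to 145996600, minus strand) encodes an alpha-arrestin that binds thioredoxin and restrains glucose uptake, and is a target of MondoA and of FOXO factors. It had 78.3, 78.7 and 85.2 CPM in U251 artesunate, against 32.4, 41.2 and 32.2 CPM in U251 control (log2 fold change 1.20 ± 0.10, called). In U87 it had 578, 558 and 590 CPM with artesunate, against 278, 243 and 268 CPM in control (1.13 ± 0.10, called). Treated libraries were above controls throughout, and the difference of the 2 effects, U251 minus U87, was 0.06 ± 0.14 with a 95% interval of -0.24 to 0.37. With the GC and length offsets that difference was 0.46 and was called.

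ARRDC4 (chromosome 15, positions 97960698 to 97973838, plus strand), a related alpha-arrestin and MondoA target, had 4.95, 3.85 and 3.40 CPM in U251 artesunate, against 1.92, 2.43 and 1.57 CPM in U251 control, from 55 to 69 and from 25 to 40 counts a library. The log2 fold change was 1.03 ± 0.19 (called), with no overlap, and 0.41 on the log2(FPKM + 1) scale. In U87 it had 159, 132 and 143 CPM with artesunate against 47.2, 49.4 and 41.2 CPM in control, a log2 fold change of 1.66 ± 0.14 (called). The difference of -0.62 ± 0.24 was called, but the call was lost with 5 alternatives, the DESeq2 fit and the GC and length offsets among them, and when any of 9 single libraries was left out, at values from -0.68 to -0.16.

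IRS2 (chromosome 13, positions 109752698 to 109786568, minus strand), the adaptor that links the insulin receptor to PI3-kinase and is itself raised by FOXO factors in liver, had 270, 247 and 235 CPM in U251 artesunate, against 140, 134 and 131 CPM in U251 control (log2 fold change 0.89 ± 0.10, called). In U87 it had 103, 110 and 87.4 CPM with artesunate against 74.6, 72.0 and 65.2 CPM in control (0.50 ± 0.10, called). All treated libraries were above the controls of their line. IRS2 is GC-rich (58.7%, higher than 83.2% of tested genes), and with the GC and length offsets the U87 value was 1.30 and the difference between the lines turned from 0.39 ± 0.14 to -0.68.

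**Figure D4:**
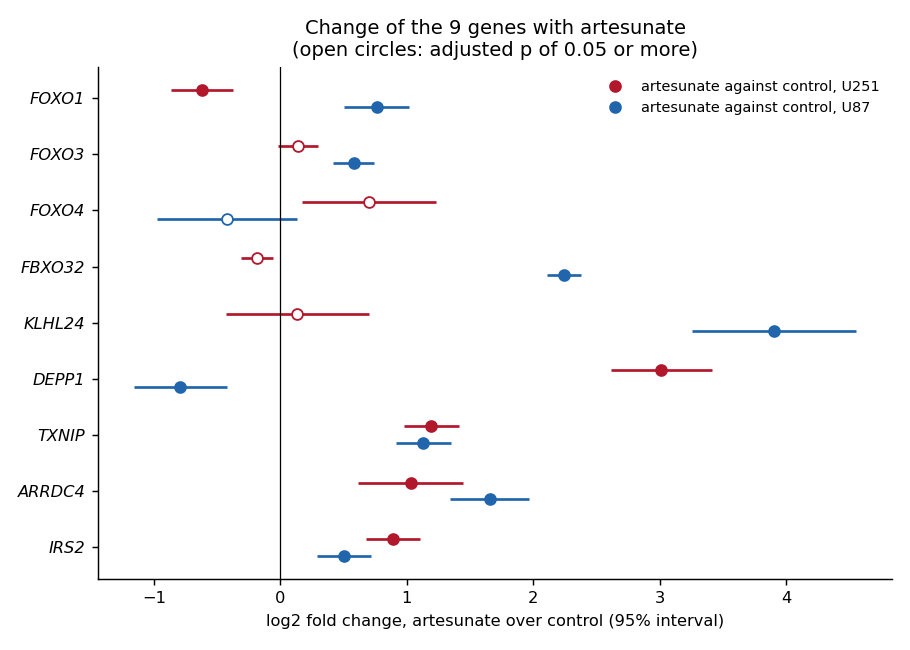
Log2 fold change of artesunate over control for the 9 genes with 95% intervals from edgeR, U251 above U87 for each gene; filled circles were called and open circles were not. The widest gaps between the lines are those of DEPP1, at 3.02 and -0.79, and KLHL24, at 0.14 and 3.91, and TXNIP shows near-equal values.

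The next question was whether the effects themselves differed between U251 and U87. The interaction was called for 8 of the 9 genes, 3 with a higher effect in U251 and 5 with a lower one, where 24.1% of all tested genes had a higher and 25.3% a lower effect in U251. DEPP1 had the largest positive difference, 3.81 ± 0.25, followed by FOXO4 at 1.12 ± 0.35 and IRS2. KLHL24 had the largest negative one, -3.77 ± 0.38, followed by FBXO32 at -2.43 ± 0.08, FOXO1, ARRDC4 and FOXO3 at -0.44 ± 0.10. The FOXO4 call was lost with the offsets, at 0.39, and without replicate 2 of U251 artesunate, at 0.92, and the IRS2 call was lost when any of 7 single libraries was left out, at 0.32 to 0.40.

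The third comparison, of untreated U251 with untreated U87, shares its control libraries with the comparisons above. The lines were far apart: 5 of the 9 genes were called higher in U251 and 3 lower, beside 32.5% of all tested genes higher and 32.3% lower. FBXO32 was 25.2-fold higher in U251 control (log2 difference 4.66 ± 0.07), KLHL24 2.97 ± 0.29 higher and FOXO1 2.41 ± 0.12 higher. IRS2 was higher by 0.94 ± 0.10 and FOXO3 by 0.48 ± 0.07. ARRDC4 was lower in U251 control, by -4.53 ± 0.18, as were TXNIP, by -2.90 ± 0.11, and DEPP1, by -2.73 ± 0.18. FOXO4, at 0.17 ± 0.25, was not called. In each of the 3 pairwise comparisons the 2 groups did not overlap for 8 of the 9 genes, where the same held for 36.8% of all tested genes in U251, 62.4% in U87 and 73.6% between the controls.

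Ordered by CPM, the level of FBXO32 and of FOXO1 ran from U251 control at the top through U251 artesunate and U87 artesunate to U87 control, with no overlap between neighbours. TXNIP and ARRDC4 ran from U87 artesunate through U87 control and U251 artesunate to U251 control, again without overlap. IRS2 ran from U251 artesunate through U251 control and U87 artesunate to U87 control without overlap. For KLHL24 the order was U87 artesunate, U251 artesunate, U251 control and U87 control, and the U251 groups overlapped; for DEPP1 it was U251 artesunate, U87 control, U87 artesunate and U251 control with no overlap. In FOXO3 and FOXO4 neighbouring groups overlapped: U251 artesunate with U87 artesunate and U87 artesunate with U251 control in FOXO3, and U251 control with U87 control and U87 control with U87 artesunate in FOXO4. Per transcript length, TXNIP had the highest level of the 9 in both U87 groups, 105 ± 1.69 FPKM with artesunate and 50.4 ± 3.87 FPKM in control (SD, n = 3). In U251 that place was held by FBXO32, at 55.3 ± 1.53 FPKM with artesunate and 64.3 ± 0.585 FPKM in control.

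The pathway around the 9 genes was then described with 4 lists of other genes, which were also drawn up with earlier results of these data known. In the list of insulin, PI3-kinase and AKT signalling genes and other FOXO regulators, 24 of 25 genes were tested. In U251 2 rose and none fell, with a median log2 fold change of -0.04, and in U87 12 rose and 6 fell, with a median of 0.49, beside 0 for all tested genes in each line. Over all tested genes 4.09% were called higher and 4.26% lower in U251, and 29.2% higher and 29.2% lower in U87, and the counts of these lists are to be read beside these shares. The 2 in U251 were INSR, the insulin receptor, at 27.2 CPM with artesunate against 13.3 CPM in control (1.03 ± 0.14, adjusted p = 0.0015), and EP300, an acetyltransferase that acts on FOXO proteins (0.30 ± 0.08, adjusted p = 0.047), whose call was lost without any 1 of the 6 U251 libraries. In U87 the largest rises were those of PIK3CA, the catalytic subunit of PI3-kinase (1.75 ± 0.08, adjusted p = 4.8e-08), SIRT1, a deacetylase of FOXO proteins (1.65 ± 0.13, adjusted p = 1.2e-06), and MDM2, a ubiquitin ligase (1.54 ± 0.11, adjusted p = 5.5e-07). The largest falls in U87 were those of IRS1, the relative of IRS2 (-1.40 ± 0.10, adjusted p = 5.3e-07), AKT2 (-1.11 ± 0.15, adjusted p = 7.4e-05) and PIK3R2, a regulatory subunit of PI3-kinase (-1.05 ± 0.20, adjusted p = 0.00071). With the GC and length offsets the list had 11 rises and 4 falls in U87, with a median of 0.28. PIK3CA then stood at 0.96, MDM2 at 1.02 and AKT2 at -0.33, still called, and PIK3R2 at 0.30 and not called. EP300 in U251 was at 0.17 and not called with the offsets. Between 1 and 5 genes of the list were called in U251 when single libraries of either line were left out.

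Of 33 entries in the list of other known FOXO targets, 32 were found and 28 tested. In U251 3 rose and 2 fell (median 0.10 over the 27 with counts), and in U87 19 rose and 3 fell (median 1.08), beside 29.2% of all tested genes higher and 29.2% lower in U87. The U251 rises were ULK1, the kinase that starts autophagy (0.79 ± 0.18, adjusted p = 0.022), BNIP3, a mitophagy receptor (0.62 ± 0.09, adjusted p = 0.0016), and GADD45A, a growth arrest gene (0.52 ± 0.14, adjusted p = 0.046). The U251 falls were PDK4, a pyruvate dehydrogenase kinase (-0.60 ± 0.15, adjusted p = 0.036), and PRDX3, a mitochondrial peroxiredoxin (-0.41 ± 0.07, adjusted p = 0.0038). When single libraries were left out, between 2 and 8 genes of this list were called in U251, and of these 5 the calls of ULK1, GADD45A and PDK4 were lost when one of several U251 libraries was absent. With offsets for GC content and transcript length ULK1 stood at 0.45 and PRDX3 at -0.27 in U251, and PDK4 at -0.41 was not called.

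In U87, SESN3, a sestrin that restrains mTORC1, was at 21.3 ± 1.87 CPM with artesunate against 3.18 ± 1.39 CPM in control (SD, n = 3; 2.73 ± 0.23, adjusted p = 1.9e-06). MAP1LC3B, the autophagosome protein LC3B, rose by 2.67 ± 0.40 (adjusted p = 0.00013), and IGFBP1, a secreted binder of insulin-like growth factors, by 2.59 ± 0.18 (adjusted p = 1.1e-05). IGFBP1 had 0 counts in all 6 U251 libraries. The falls in U87 were those of BBC3, the cell death protein PUMA (-1.41 ± 0.52, adjusted p = 0.035), PINK1, a mitophagy kinase (-1.21 ± 0.15, adjusted p = 3.3e-05), and BNIP3 (-0.37 ± 0.09, adjusted p = 0.003), the last opposite to U251. BBC3 was not called without any of 5 of the 6 U87 libraries. With the GC and length offsets the list had 18 rises and 1 fall in U87, with a median of 0.76. The BBC3 value was then 0.31 and that of BNIP3 -0.17, neither called. ULK1, at -0.02 in U87 without the offsets, was at 1.30 with them and called. The interaction was called for 20 of the 28, 4 with a higher and 16 with a lower effect in U251, beside 24.1% of all tested genes higher and 25.3% lower. With the GC and length offsets it was called for 16.

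The list around MondoA, other arrestin-domain proteins, thioredoxins and glucose transporters had 10 of 12 genes tested, of which 3 rose and none fell in U251 (median 0.49 over the 9 with counts), and 2 rose and 6 fell in U87 (median -0.56), beside 29.2% of all tested genes higher and 29.2% lower there. SLC2A3, the glucose transporter GLUT3, rose in both lines, to 148 CPM in U251 artesunate against 42.7 CPM in U251 control (1.79 ± 0.12, adjusted p = 7.2e-06) and to 290 CPM in U87 artesunate against 70.6 CPM in U87 control (2.04 ± 0.12, adjusted p = 1.3e-07). SLC2A1, the transporter GLUT1, rose in U251 (0.95 ± 0.20, adjusted p = 0.016) and fell in U87 (-2.10 ± 0.21, adjusted p = 7.2e-06), a difference of 3.05 ± 0.30 (adjusted p = 1.4e-05). The U251 rise of SLC2A1 was not called without 1 of 5 of the 6 U251 libraries. ARRDC3 rose in U251 (0.72 ± 0.11, adjusted p = 0.0029). In U87, TXN, thioredoxin itself and the binding partner of TXNIP, rose by 1.72 ± 0.16 (adjusted p = 4.3e-06), and ARRDC2 (-0.88 ± 0.25, adjusted p = 0.0093) and MLXIP, the gene of MondoA (-0.87 ± 0.11, adjusted p = 3.3e-05), fell. With the GC and length offsets 4 genes of the list rose and 2 fell in U87, so the balance of called genes turned, and the median was -0.05. Neither ARRDC2, at 0.06, nor MLXIP, at -0.15, was called there.

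Among other ubiquitin ligase subunits and relatives of FBXO32 and KLHL24, 17 of 18 entries were found and all 17 tested, with 1 that rose and 1 that fell in U251 (median 0.08) and 11 that rose and 2 that fell in U87 (median 0.44), beside 29.2% of all tested genes higher and 29.2% lower in that line. In U251 KLHL21 rose (0.85 ± 0.23, adjusted p = 0.042) and KLHL13 fell (-0.47 ± 0.12, adjusted p = 0.037), and between 0 and 3 genes of the list were called there when single libraries were left out. FBXO30, an F-box protein known with FBXO32 from muscle wasting, rose in U87 by 2.05 ± 0.12 (adjusted p = 1.4e-07). SKP1, the SCF subunit that holds F-box proteins, rose by 0.98 ± 0.07 (adjusted p = 5.4e-07), and CUL3, the scaffold that KLHL24 joins, by 0.87 ± 0.12 (adjusted p = 5.2e-05). KLHL25 fell by -1.18 ± 0.21 (adjusted p = 0.00044) and KLHL22 by -1.16 ± 0.22 (adjusted p = 0.00067). With the GC and length offsets 8 genes of the list rose and 1 fell in U87, and the median was 0.175. FBXO30 then stood at 1.26 and SKP1 at 0.46, and CUL3, at 0.18, KLHL25, at -0.27, and KLHL22, at -0.13, were not called. KLHL13 in U251 stood at -0.27 and was not called.

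**Figure D5:**
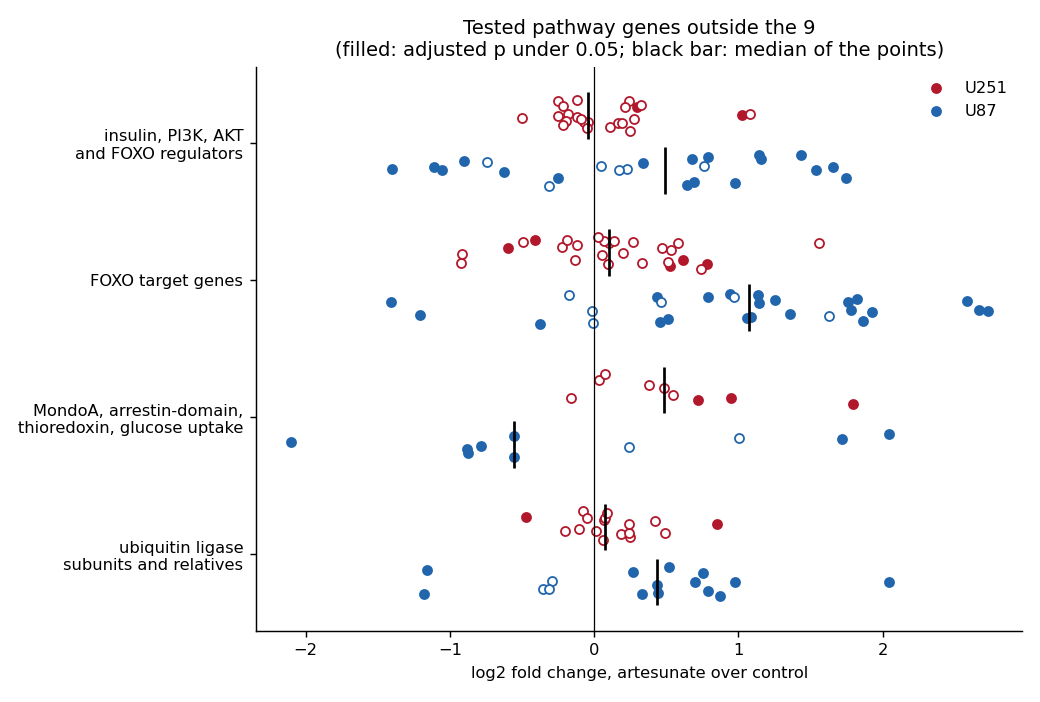
Log2 fold change of artesunate over control for the tested genes of the 4 lists, U251 above U87 in each list; each point is a gene with counts, filled if called, and black bars are medians. In the list of FOXO targets the U87 median is 1.08 and the U251 median 0.10. With the GC and length offsets, not drawn here, the U87 median of that list was 0.76.

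Last, the protein-coding genes whose pattern was most like that of 4 of the 9 were sought among 13578 genes, as the smallest root mean square distance of log2 CPM over the 12 libraries after each line was centred on its control mean. Nearest to FBXO32 was VPS26A, a retromer subunit, at a distance of 0.10, with log2 fold changes of -0.11 ± 0.09 in U251 and 2.23 ± 0.09 in U87. The next in rank, LACC1 and MT1M, had 0 counts in all U251 libraries, so likeness there was not measured and no distance is given. Nearest to KLHL24 were CREBRF at 0.51, with 0.26 ± 0.13 in U251 and 3.36 ± 0.14 in U87, and KCNT2 at 0.53, with 0.61 ± 0.37 and 3.63 ± 0.26. KCNT2 was little above the floor in U251, at 0.611 CPM with artesunate and 0.394 CPM in control, so its likeness there is uncertain. The next gene, AD000671.1, had counts in U87 artesunate only, and no distance is given. Nearest to DEPP1 was VEGFA, the angiogenic growth factor, at 0.30, with 2.79 ± 0.21 in U251 and -0.64 ± 0.20 in U87. CA9, a carbonic anhydrase, was at 0.61; ZNF469, ranked between them, was near or under the floor in U87, and no distance is given. For TXNIP the nearest were PLOD2 at 0.13, ARHGEF2 at 0.14 and P4HA1 at 0.16, with log2 fold changes between 1.03 and 1.18 in both lines.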

How the data were processed

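The members and the gene lists were chosen with earlier results of these data known. Per the submitters' processing notes, reads were cleaned with fastp, aligned with HISAT2 2.1.0 and quantified with StringTie 1.3.3b, and the authors used edgeR 3.30.3. The design text names GRCh38 with release 91. The deposited table holds whole-number counts per gene, not normalized per the file headers, and FPKM, which the authors derived with TMM scaling per the design text; the step that made the counts is not given in the sources used here. Symbols and positions came from the table, and GC content and length from GENCODE 29, with values for 99.6% of tested genes.

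Counts were fitted in R 4.3.3 with edgeR 4.0.16 (filterByExpr with a minimum count of 10 and total of 15, TMM factors of 0.957 to 1.04, quasi-likelihood fit with 1 mean for each of 4 groups over 12 libraries, common biological coefficient of variation 0.183). Adjusted p-values are Benjamini-Hochberg over the 17150 genes of each comparison, and called means under 0.05. SE and 95% intervals came from the same fit. limma 3.58.1 and DESeq2 1.42.0 were used for alternatives: other size factors, no filter, only the libraries compared, a replicate block, FPKM on the log2 scale with pseudocounts of 1 and 0.1, offsets for GC content and transcript length, and each library left out. The fit was tested on simulated data. All 9 members are named, and from each list up to 3 called genes per line and direction with the largest change and a group mean of at least 1 CPM, and the 3 genes most like each of 4 members. Replicate numbers come from the titles. Library totals set the precision of counts, and floors cover counting error only.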

Additional observations from a re-analysis of the deposited data

Results flagged for a closer look

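The effect of artesunate differed between the lines, by the interaction test of edgeR, for 8 of the 9 genes, beside 24.1% of all tested genes with a higher and 25.3% with a lower effect in U251. On the log2 scale, U251 minus U87, the differences were 3.81 for DEPP1, 1.12 for FOXO4 and 0.39 for IRS2 on the positive side, and -3.77 for KLHL24, -2.43 for FBXO32, -1.38 for FOXO1, -0.62 for ARRDC4 and -0.44 for FOXO3 on the negative side. As the genes were chosen with these contrasts known, this is a description. With offsets for GC content and transcript length 5 of the 8 kept direction and call, FOXO4 (0.39) and ARRDC4 (-0.16) were not called, and IRS2 turned to -0.68 and was called.

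The same held for 28 of the named pathway genes, all but INSR, IGFBP1 and SLC2A3. These genes were named for being called with large changes within a line, so many such differences follow from that choice. This too is a description. Among regulators the differences were 1.51 for IRS1, 1.38 for PIK3R2 and 1.32 for AKT2, and -2.0 for PIK3CA, -1.87 for SIRT1, -1.79 for MDM2 and -0.38 for EP300. Among FOXO targets they were 2.97 for BBC3, 1.72 for PINK1, 0.99 for BNIP3 and 0.80 for ULK1, and -3.22 for SESN3, -2.19 for MAP1LC3B, -1.95 for PDK4, -1.30 for GADD45A and -0.86 for PRDX3. Around MondoA they were 3.05 for SLC2A1, 1.37 for ARRDC2, 1.25 for MLXIP and 0.48 for ARRDC3, and -1.64 for TXN. Among ligase genes they were 1.60 for KLHL25, 1.25 for KLHL22 and 1.16 for KLHL21, and -1.80 for FBXO30, -1.08 for SKP1, -0.99 for KLHL13 and -0.86 for CUL3. With the offsets 18 of the 28 kept direction and call. ULK1 turned to -0.85 and was called. The other 9 were not called: BBC3 (0.87), KLHL25 (0.43), AKT2 (0.31), ARRDC2 (0.19), KLHL21 (0.06), KLHL22 (0.00893), CUL3 (0.00348), KLHL13 (-0.08) and PIK3R2 (-0.29). Line and dose cannot be told apart in these differences.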

How the results depend on the processing

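In U251 1431 genes were called, against 2312 with DESeq2, 864 with no filter on low counts, 2892 with only the U251 libraries fitted, and 652 to 2582 when single libraries were left out, lowest without replicate 1 of U251 artesunate and highest without replicate 2 of U87 artesunate. With total counts in place of TMM 38.7% of the U251 calls were higher, against 49.0% with TMM. For the difference between the lines 8478 genes were called, 5155 with the GC and length offsets and 7739 to 9314 with libraries left out. In U87 the count of 10005 ran from 9029 to 10468 and between controls 11115 from 10315 to 11969. With libraries left out, 5 to 6 of the 9 genes were called in U251, 8 in U87, 5 to 8 for the difference (5 without replicate 2 of U251 artesunate) and 8 between controls; with the offsets these counts were 5, 7, 7 and 9. Over all alternatives the U251 calls in the lists ran from 1 to 5 among regulators, 2 to 11 among targets, 2 to 6 around MondoA and 0 to 3 among ligase genes. With the offsets the difference was called for 4 of the genes around MondoA and 4 of the ligase genes, against 8 and 13 without. The replicate block changed few of these calls. Same-numbered libraries deviated together by correlations of only -0.04 to 0.05. These were taken over all tested genes, so they cannot exclude a pairing that acts on some of them. With the block 5, 8, 7 and 8 of the 9 were called in the 4 comparisons, the FOXO4 difference being lost.

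Of the 9 genes' alternative values 746 kept direction and call, 25 lost a call, 9 gained one and 3 turned sign. The offsets turned FOXO4 in U87 (0.17) and the IRS2 difference (-0.68), and the TXNIP difference ran from -0.000243, without replicate 3 of U251 control, to 0.192 with libraries left out. Alternatives for list genes were chosen after seeing the data: 1847 values kept direction and call, 94 lost a call, 38 gained one and 23 turned. In U251 these were AKT2 (-0.0197) and KLHL22 (-0.13) with the offsets, TXN (-0.0157 to 0.215) with libraries left out, and CUL3 (-0.0232 with total counts, -0.0199 and -0.0228 on FPKM, -0.0199 without a filter, -0.00963 to 0.0296 with libraries left out). In U87 the offsets turned ARRDC2 (0.0642), ARRDC3 (-0.41), BBC3 (0.31), KLHL13 (-0.19), KLHL21 (0.52), PIK3R2 (0.30) and ULK1 (1.30; -0.314 to 0.149 with libraries left out), and the differences of CUL3 (0.00348), PIK3R2 (-0.29), SLC2A3 (0.0209) and ULK1 (-0.85). The cause was not tested. The difference has no separate fit with only its own libraries, since it uses all 12. Depth limits FOXO6, which lay at the floor, FOXO4, with 32 to 160 counts a library over both lines and the fewest in U87 artesunate, and ARRDC4, with under 200 counts in U251 libraries.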
